A study of Rattus norvegicus with 18 samples.

Results

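Tags that went past the 3' end of a miRNA with 1 to 3 bases, all of them A or all of them U, were examined in small RNA from the developing rat cortex. A tag was a member when it equalled the whole mature sequence of 1 of 44 miRNAs followed by such a tail and by nothing else. The 44 sequences were 30 known miRNAs and 12 candidate miRNAs whose ends are given by stem-loop and forward primers, and 2 known miRNAs shown in figures, miR-128 and miR-376b, whose sequences were taken from RefSeq. Of 264 possible A or U tailed tags, 214 were present, and they held 4506264 reads with an A tail and 4938884 reads with a U tail. Together these were 4.51% of 209501253 clean reads. The same search over 784 mature sequences, which added the rat miRNAs of RefSeq and further candidates, found 2480 A or U tailed tags. The sequences are written as sequenced, with T for U.

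Small RNA of Sprague Dawley rats was sequenced on the Solexa platform at the embryonic stages E10, E13 and E17 and the postnatal stages P0, P3, P7, P14 and P28. Of the 9 tissue samples 2 were from P0 and 1 from every other stage, and each was run on the sequencer 2 times, which gave 18 libraries. By the labels the E10 and E13 tissue was forebrain and all later tissue somatosensory cortex, while the methods give the whole cortex at the early pair of stages and its dorsolateral part later, so that for E10 and E13 the stage and the tissue cannot be told apart. The tissue was untreated at each stage, and no genotype, agent or pooling of animals that differs between stages is given. In such bulk samples fewer cells of a type and less RNA per cell cannot be told apart. The 2 runs of a tissue sample are technical repeats, and their reads were summed where no run is named.

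The runs of a tissue sample stood apart. Run 1 libraries held 4899010 to 11043948 clean reads and run 2 libraries 12769251 to 16590379. Over the 25 miRNAs with at least 100 full-length and tailed reads in each tissue sample, the median size of the difference in level between the runs, relative to clean reads, lay between 0.438 at P3 and 1.95 at P7 on the log2 scale. At E10 it was 1.61, and 18 of the 25 differed by more than 1. The brain enriched miR-124 and miR-128 were present in every tissue sample, with at least 114592 and 38835 reads. The mesenchyme enriched miR-199a-3p had 352316 reads at E10 and 343447 at E13, against 1577 to 14234 in the later tissue samples. Because the runs differ, values of each run stand beside the summed ones where they decide a result.

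After a miRNA has been cut from its precursor, terminal nucleotidyl transferases can add single bases to its 3' end without a template. Adenosine and uridine are the bases these enzymes mostly add, and such tails are known to bear on the stability and activity of miRNAs, while uridine added to a precursor can bear on its processing. A tag longer than the annotated mature sequence can also arise when Drosha or Dicer cuts 1 or more bases further along the hairpin, and such bases are copies of the genome. The reads alone do not separate these routes where the added base equals the next base of the hairpin. C and G tails were therefore counted in the same way as the background. The adaptor sequence is not given, so the added bases were not compared with it.

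The mature sequences on which the results turn follow, with the seed (bases 2 to 8) in capitals. The seed pairs a miRNA with its targets, and tails leave it unchanged. miR-92a and miR-92b have the same seed, as have miR-29a and miR-29c, so that tails can be compared within each pair. miR-92a and miR-92b also differ in their last bases, while miR-29a and miR-29c end alike. Candidate 55 equals miR-3099 of RefSeq. The sequence given by the primers named miR-99b differs from the miR-99b-5p of RefSeq at 4 positions and lies in the Mir99a hairpin, and is called the miR-99b primer sequence here.
miR-124: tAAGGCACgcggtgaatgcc
miR-128: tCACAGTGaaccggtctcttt
miR-134: tGTGACTGgttgaccagagggg
miR-92a: tATTGCACttgtcccggcctg
miR-92b: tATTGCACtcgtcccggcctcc
miR-29a: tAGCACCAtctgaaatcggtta
miR-29c: tAGCACCAtttgaaatcggtta
miR-130a: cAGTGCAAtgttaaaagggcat
miR-16: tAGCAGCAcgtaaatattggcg
miR-376b: aTCATAGAggaacatccactt
Candidate 55: tAGGCTAGaaagaggttgggga
miR-99b primer sequence: aACCCGTAgatccgatcttgtg

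The tailed tags with the most reads of miR-124, miR-128, miR-92a, miR-92b and miR-29a follow, with the tail in capitals. They show the 3 kinds of tail that led the reads, which were 2 A bases, 1 U and 1 A. miR-124 with 2 added A held 3226015 reads, miR-128 with 1 added U held 4305397, miR-92a with 1 added U held 79526, miR-92b with 2 added A held 12008 and miR-29a with 1 added A held 13312.
miR-124 with AA: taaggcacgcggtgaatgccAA
miR-128 with U: tcacagtgaaccggtctctttT
miR-92a with U: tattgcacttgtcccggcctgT
miR-92b with AA: tattgcactcgtcccggcctccAA
miR-29a with A: tagcaccatctgaaatcggttaA

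A and U tails were far more frequent than C and G tails on most of these miRNAs. The tail share is the percentage of tailed reads among full-length reads plus reads with a tail of 1 base kind, A, U, C or G. Over the 25 miRNAs with enough reads, the mean A share over the 9 tissue samples ran from 0.376% to 97.9% with a median of 7.23%, and the mean U share from 0.0229% to 66.3% with a median of 5.92%. The median of the mean C shares was 0.103% and that of the mean G shares 0.0649%. The highest mean G share among the 25 was 0.607%. Over all 151 sequences with at least 100 reads in each tissue sample the medians were 5.47% for A, 7.79% for U, 0.0773% for C and 0.0841% for G.

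The A or U share was set against the mean of the C and G shares in each tissue sample with an exact two-sided sign-flip permutation test over the 9 tissue samples. It was higher for 44 of the 50 combinations of miRNA and tail base and lower for 6, all past a Benjamini-Hochberg adjusted p of 0.05. Over all 302 combinations tested, 85.4% were higher and 11.6% lower, so that the members were near the background of the table. The adjusted p was 0.00427 in 48 of the 50, where p was 0.0039, the smallest that 9 tissue samples can give in the exact permutation test. The exceptions were the A tails of miR-137 and miR-92a, with adjusted p-values of 0.00825 and 0.0322 in the exact permutation test. Since each stage but P0 is 1 tissue sample, these p-values treat the stages as repeats of one another.

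The 6 lower values came from miR-222, miR-494 and miR-378, which had large C shares. The C share lay between 88.6% and 92.7% in miR-222, a miRNA of the miR-221 cluster on the X chromosome, and between 39.3% and 55.1% in miR-494 of the imprinted Dlk1-Dio3 region. The E10 value of miR-222 rests on run 1, with 2373 reads. Run 2 had 85 reads at E10, of which 39 were full length, 8 had an A tail and 6 a U tail, so that C tails were a minority there. In both miRNAs, the base after the mature end in the RefSeq hairpin is c and the one after it is t, as in ctc for Mir222 (chrX:6022682-6022702, GRCr8, plus strand) and ctt for Mir494 (chr6:134550163-134550183, plus strand). The mean A and U shares of miR-222 were 0.402% ± 0.174 (SD, n = 9) and 0.333% ± 0.115. Those of miR-494 were 0.376% ± 0.338 and 0.329% ± 0.285, and both miRNAs were among the 3 lowest for A and for U. The hairpin of miR-378, named here after its values were seen, was not among the hairpins matched.

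Neither tail base prevailed over the set. The mean A share was above the mean U share in 14 of the 25 miRNAs and below it in 11. A was above U in each of the 9 tissue samples in 7 miRNAs, and U was above A in each in 7 others. The A share of the median miRNA lay between 4.59% at P7 and 9.16% in P0 replicate 2, and the U share between 2.85% at P28 and 8.82% in P0 replicate 2. In each run taken singly the A median was lowest at P14, with 3.37% in run 1 and 4.79% in run 2. The U median of run 2 was highest at E10, with 7.85%. A and U tailed reads together outnumbered full-length reads over all libraries in 3 miRNAs, miR-124, miR-92a and Candidate 55. This count weighs each tissue sample by its reads and leaves out miR-92b, whose mean A and U shares were 41.8% and 26.4%. Most reads of miR-92b came from E10, with 8083 in run 1 and 71300 in run 2. Both of its shares were lowest there, at 21.9% and 15.0%.

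Among the neuron enriched miRNAs, miR-124 had both the highest mean A share and the lowest mean U share of the 25. miR-124, an abundant brain miRNA that promotes neuronal differentiation, was nearly always longer than the primer sequence. Its A share was 99.5% at E10, 98.3% at E13, 98.0% at E17, 98.5% and 98.2% at P0, 98.0% at P3, 97.4% at P7, 97.1% at P14 and 96.3% at P28. Of its A tailed reads 93.0% had 2 A bases, 3.26% had 1 and 3.73% had 3. Its mean U share was 0.0229% ± 0.0279 (SD, n = 9), with 0.0935% at E10 as the highest value. The hairpins of miR-124 were not among those matched, so its added A bases were not compared with its precursor. Full-length reads, without any tail, numbered 59138 against 3468605 with an A tail.

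miR-128, a brain enriched miRNA that rises as neurons mature, had the most U tailed reads, 4686059. Its U share was 13.3% at E10 and 19.7% at E13, and 42.3% at E17, 38.5% and 43.2% at P0, 40.9% at P3, 32.9% at P7, 31.2% at P14 and 35.5% at P28. The forebrain stages were thus lowest, in both runs: 13.6% and 13.1% at E10 and 18.3% and 22.2% at E13, against 29.8% to 43.3% in the runs of all later tissue samples. Its A share was 10.5% at E10, 8.26% at E13, 7.07% at E17, 9.21% and 9.20% at P0, 7.76% at P3, 4.59% at P7, 3.63% at P14 and 4.84% at P28. The 3 tissue samples from P7 on were the lowest for A. The C share of miR-128 lay between 1.12% at E10 and 2.92% at E17. miR-128 comes from 2 hairpins, Mir128-1 (chr13:42251933-42251953, plus strand) with ttc after the mature end and Mir128-2 (chr8:120963807-120963827, minus strand) with ccc, so up to 2 added U or 3 added C can be copies of a precursor and an added A cannot be at these loci. Of the U tailed reads 91.9% had 1 base.

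miR-134, a miRNA of neuronal dendrites that lies in the Dlk1-Dio3 region, had a mean A share of 19.5% ± 6.72 (SD, n = 9) and a mean U share of 16.9% ± 8.0. Its A share was lowest at E10 with 12.5%, had a median of 17.7% and reached 36.1% at P28. On average the A share was 26.3% in run 1 and 17.7% in run 2. It was lower in run 2 in 8 of 9 tissue samples (exact permutation test, adjusted p = 0.0436). At E10 miR-134 had 297 reads in run 1 and 2470 in run 2. Its U share was 26.3% at E10 and 28.5% at E17 and lowest at P14 and P28, with 6.10% and 8.91%. Its hairpin goes on with cgt, so that neither base is a copy of the genome at that locus. miR-134 was shallow, with 130 reads in the tissue sample with the fewest. miR-138, a synaptic miRNA, had a mean U share of 19.1% ± 4.06 (SD, n = 9), from 13.0% in P0 replicate 1 to 25.5% at E17, and a mean A share of 7.64% ± 1.66. It was shallow at E13 and E17, with 195 and 220 reads, and is not in the test between runs below. The hairpins of miR-138 go on with t at Mir138-1 and with a at Mir138-2. miR-137, which acts in neural progenitors and neurons, was the remaining one of the 3 lowest for A, with a mean share of 0.896% ± 0.503, and a mean U share of 2.80% ± 0.870.

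Among the miRNAs of proliferation clusters, miR-92a carried U tails almost alone, while miR-92b, nearly the same in sequence, carried both A and U tails. miR-92a, a member of the miR-17-92 cluster, had U shares of 92.0% at E10, 57.5% at E13, 66.9% at E17, 67.3% and 65.3% at P0, 62.1% at P3, 62.1% at P7, 64.2% at P14 and 58.9% at P28. The E10 value rests on run 2, with 84854 reads and a share of 92.9%, while run 1 had 2663 reads and a share of 60.8%. Its mean A share was 1.45% ± 1.43 (SD, n = 9). In miR-92b the A share was 21.9% at E10, 48.9% at E13, 51.5% at E17, 47.4% and 44.3% at P0, 38.9% at P3, 37.4% at P7, 38.0% at P14 and 48.0% at P28. Run 2 also set the low value at E10, with 20.2% against 37.2% in run 1. The U share of miR-92b was 26.4% ± 4.95.

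In all 9 tissue samples miR-92b had the higher A share and miR-92a the higher U share, by 40.4 ± 9.92 and 39.9 ± 14.3 percentage points (SD, n = 9). The mature miR-92a ends in g and its hairpins go on with ttg at Mir92a1 (chr15:98588602-98588622, plus strand) and agg at Mir92a2 (chrX:137342945-137342965, minus strand). The mature miR-92b ends in c and its hairpin, Mir92b (chr2:176931663-176931684, minus strand), goes on with ggc, so that its A and U tails do not copy this locus. miR-130a, which shares its seed with miR-130b, had a mean A share of 19.5% ± 6.39, from 8.58% at E10 to 27.0% in P0 replicate 2 with both runs summed. Its U share ran from 3.82% at E10 to 26.7% in P0 replicate 2, with a median of 14.2%. The low A share of miR-130a at E10 again came from run 2, with 7.37% against 26.5% in run 1, while its U share at E10 was 3.53% in run 2 and 8.24% in run 1. The runs also differed at other stages and not in 1 direction, with A shares of 35.8% in run 1 and 16.5% in run 2 at E17, 15.6% and 32.0% in P0 replicate 1, 37.1% and 22.7% in P0 replicate 2, and 37.3% and 12.8% at P28. Run 1 was highest at P7 with 48.4% of 31 reads, against 13.2% in run 2, and run 2 was highest in P0 replicate 1, so the order of the stages is not settled for this miRNA. Its hairpin goes on with cgg.

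Of the 5 miRNAs of maturing neurons and glia, the 3 with enough reads, miR-29a, miR-29c and miR-22, had mean A and U shares of 3.73% or less. miR-29a, which rises with cortical maturation and targets matrix and methylation genes, had a mean A share of 1.61% ± 0.661 (SD, n = 9) and a mean U share of 1.03% ± 0.554. Its A share was lowest at P14 with 0.720% and highest at E17 with 2.70%, and P28 lay between them with 1.75%. miR-29c had a mean A share of 2.23% ± 1.16 and a mean U share of 1.06% ± 0.522. miR-29c was above miR-29a in the A share in all but 1 tissue sample, by 0.613 ± 0.551 percentage points, while miR-29a had the higher U share in 4 of 9. Both hairpins go on with t, as taa and tga. miR-22 had a mean A share of 3.07% ± 1.82 and a mean U share of 3.73% ± 2.27, both highest in P0 replicate 2.

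miR-29b and miR-219-2-3p did not reach 100 reads in each tissue sample. miR-29b had 608 full-length reads in all, 61 reads with an A tail and 83 with a U tail. miR-219-2-3p, an oligodendrocyte miRNA of myelination, had 4597 full-length reads, 7485 reads with an A tail and 3382 with a U tail. At P28 it had 2543 full-length reads against 6248 with an A tail and 2824 with a U tail, and at E10 1316 against 102 and 24. The E10 reads came mostly from run 2, with 1309 full-length reads, 84 with an A tail and 19 with a U tail, while run 1 had 7, 18 and 5, so that full-length reads outnumbered tailed ones at E10 in run 2 alone. Its hairpin goes on with ggt, so that neither tail copies that locus.

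Among the other miRNAs, Candidate 55 was high in both tails. Its mean U share was 40.4% ± 9.40 (SD, n = 9), lowest at E10 with 26.1% and highest at E17 with 53.6%, below that of miR-92a alone. The E10 values of Candidate 55 come mostly from run 2, with 9874 reads against 403 in run 1. Its mean A share was 21.5% ± 2.82. Its hairpin, Mir3099 (chr1:76057109-76057130, minus strand), goes on with tgg, so that 1 added U can be a copy and a second cannot, and of its U tailed reads 52.8% had 1 base, 37.2% had 2 and 10.0% had 3. miR-376b of the Dlk1-Dio3 region had a mean U share of 20.9% ± 6.15 and a mean A share of 8.86% ± 3.77, with 14.5% and 15.3% at E10 and E13 and 5.02% at P28. On average the A share was 10.4% in run 1 and 7.69% in run 2, and lower in run 2 in 8 of 9 tissue samples (exact permutation test, adjusted p = 0.0436). Reads with the edited seed base that the paper reports, A read as G, were not counted. By the paper that edited form was above the unedited one from P7 on. The miR-99b primer sequence had a mean A share of 12.8% ± 5.70, between 6.25% at E10 and 20.8% at P3. At E10 this sequence had 16676 reads in run 1 and 66030 in run 2. miR-16, a broadly expressed miRNA that restrains the cell cycle, had a mean U share of 14.0% ± 2.78 and a mean A share of 11.2% ± 4.45. Its hairpin, Mir16 (chr2:155555343-155555364, plus strand), goes on with tag, so that its 1-base U tails, 96.7% of its U tailed reads, can be copies and its A tails cannot. The 8 remaining miRNAs with enough reads had mean A shares from 1.20% in miR-3559-5p to 12.3% in miR-135a* and mean U shares from 1.02% in miR-221 to 14.8% in Candidate 11.

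The 19 miRNAs below 100 reads in a tissue sample included 10 of the 12 candidates. Of these 10, 8 had fewer than 10 A or U tailed reads over all libraries, and Candidate 2 had no full-length read. The highest number among them was 174. Of the known miRNAs below the minimum, miR-130b had 34492 full-length reads, 4725 with an A tail and 3855 with a U tail. E10 alone held 30302, 3360 and 2721 of these. miR-93, of a cluster related to miR-17-92, had 51118 full-length reads, 5083 with an A tail and 2538 with a U tail. Its A share over all reads was 8.64%, against 8.98% at E10, the highest value, and a mean of 4.18% over the tissue samples. miR-708, which lies in an intron, had 16708 full-length reads, 955 with an A tail and 1361 with a U tail. miR-296 of the Gnas region had 928 full-length reads and 924 with an A tail. miR-344b-5p and miR-409-5p had 84 and 37 A or U tailed reads in all. miR-298 of the Gnas region, named here after its values were seen, had 40307 reads with an A tail and 10765 with a U tail against 3993 full-length reads, but only 51 such reads in the tissue sample with the fewest.

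In most miRNAs the tail was a single base. Over the 25 miRNAs the median share of 1-base tails was 86.1% among A tailed reads and 91.9% among U tailed reads. Tails of 3 bases had medians of 0.983% for A and 2.14% for U. Counted over reads, A tails of 2 bases led, since miR-124 alone held 3226015 such reads of the 4506264 A tailed reads of all 44 miRNAs. Among the 25, miR-124 was the one miRNA with most A tailed reads at 2 bases, and miR-494, with 44 U tailed reads, the one for U. In miR-92b 44.4% of A tailed reads had 1 base, 45.5% had 2 and 10.1% had 3. In miR-134 26.7% of U tailed reads had 3 bases, the highest share of that length among the 25 for either base. C tails, by contrast, had 1 base in a median of 99.98% of their reads and G tails in 99.7%.

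The first tail base was compared with the next base in the RefSeq hairpins, which could be done for 20 of the 25 miRNAs. For U, the next base was t at 1 or more loci in 12 miRNAs, with mean U shares from 1.03% to 66.3% and a median of 5.45%. It differed at each locus in 8, with shares from 0.329% to 26.4% and a median of 4.80%. For A, the next base was a in 3 miRNAs, with a median of 3.62%, and differed in 17, with a median of 5.12% and a highest value of 41.8%. For C the medians were 1.16% in 6 miRNAs with c next and 0.0588% in 14 without. The highest C share among these 14 was 0.166%. These are descriptions of 20 miRNAs that also differ in length, last base and depth.

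The shares were also read by the last base of the miRNA. The 9 miRNAs that end in G had a median U share of 14.0% and a median A share of 7.64%. The 7 that end in A had medians of 2.72% for U and 3.30% for A. The 6 that end in U had medians of 9.80% for U and 5.15% for A. The 3 that end in C, miR-124, miR-92b and miR-221, had A shares of 97.9%, 41.8% and 3.62%, of which the last, named after its values were seen, was 12.1% at E10 and 4.25% or less at every later stage. Its E10 value rests on run 2, with 18.9% against 4.46% in run 1. The hairpin of miR-221 goes on with agg, so that its 1-base A tails, 81.5% of its A tailed reads, can be copies.

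The tail share differed between the runs for part of the miRNAs. The exact two-sided sign-flip permutation test over the 9 pairs of runs could be made for 48 combinations of miRNA and tail base, and 11 passed an adjusted p of 0.05, 4 of them higher in run 2 and 7 lower. Over all 296 combinations tested, 10.1% were higher in run 2 and 7.77% lower. The A share of miR-16 was 13.7% in run 2 and 3.39% in run 1 on average, and higher in run 2 in 9 of 9 tissue samples (exact permutation test, adjusted p = 0.033). In miR-92b run 2 was lower in 9 of 9, with 37.2% against 48.1% for A and 23.0% against 30.5% for U. The A share of miR-29a was 1.08% in run 2 and 2.02% in run 1, and lower in 9 of 9. In miR-124 the A share was 98.2% in run 2 and 93.8% in run 1, and in miR-128 neither tail passed, with 33.9% against 32.2% for U. None of the 11 passed when any 1 tissue sample other than P0 replicate 2 was left out, where the smallest p that 8 tissue samples allow is 0.0078 in the exact permutation test, and 8 combinations passed without P0 replicate 2.

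No A or U tail of the 44 miRNAs passed the test for a change over development. The change was fitted with edgeR as the slope of the log2 ratio of tailed to full-length reads on the stage order, from 1 at E10 to 8 at P28, over 9 tissue samples and all 667 combinations of sequence and tail base with at least 10 tailed and 10 full-length reads in at least 2 tissue samples. The A and U tails of the 44 miRNAs gave 65 of these combinations, 32 for A and 33 for U, and 0 of them passed a Benjamini-Hochberg adjusted p of 0.05. Of all 667 combinations 0% passed, while 115 (17.2%) had an unadjusted p below 0.05, among them 10 of the 65. limma called 0 of 667 as well and DESeq2 34 (5.10%), of which 5 were among the 65. With the 18 libraries fitted singly and the run number as a replicate block, edgeR called 38 (5.70%), of which 7 were among the 65. That fit counts the runs of 1 tissue sample as separate samples.

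The 7 named by the replicate block were 5 with a falling and 2 with a rising slope, and they are listed here after their values were seen. The A tail of miR-221 had a slope of -0.35 ± 0.088 (SE) per stage (edgeR, adjusted p = 0.105, and 0.00957 with the block). This value leans on E10, run 2: it was -0.21 both without E10 and with run 1 alone (edgeR, adjusted p = 0.192 and 0.424). The 1-base A tails of miR-221 can be copies of its hairpin. The A tail of miR-92a had -1.16 ± 0.26 (edgeR, adjusted p = 0.105, and 0.0152 with the block), with 3649 of its 4113 A tailed reads being 1-base tails, nearly all from E10. Without E10 its slope was -0.47 (edgeR, adjusted p = 0.192). The U tail of miR-134 had -0.32 ± 0.089 (edgeR, adjusted p = 0.129, and 0.0494 with the block). The A tail of miR-124 had -0.33 ± 0.087 (edgeR, adjusted p = 0.119, and 0.0485 with the block). The A tail of miR-376b had -0.22 ± 0.081, with an edgeR adjusted p of 0.215, and 0.0294 with the block. The U tail of miR-199a-3p and the A tail of Candidate 11 had slopes of 0.16 ± 0.061 and 0.16 ± 0.066 (edgeR, adjusted p = 0.215 and 0.249, and 0.0496 and 0.0471 with the block). The 5 tails called by DESeq2 on the 9 tissue samples were all among these 7, with DESeq2 adjusted p = 0.00183 for miR-92a A, 0.00231 for miR-221 A, 0.00877 for both miR-124 A and miR-134 U and 0.0201 for miR-199a-3p U. The A tails of Candidate 11 and miR-376b did not pass with DESeq2 (adjusted p = 0.0628 and 0.0848).

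The slopes of the named miRNAs with the most reads did not pass either. miR-128 had -0.17 ± 0.083 for A and 0.16 ± 0.11 for U (edgeR, adjusted p = 0.304 and 0.468). Without E10 and E13 the slope of its U tail was -0.17 (edgeR, adjusted p = 0.27), so that its direction rests on the forebrain stages. miR-29a had -0.085 ± 0.095 for A and -0.14 ± 0.12 for U (edgeR, adjusted p = 0.658 and 0.548). The U tail of miR-124 had -0.24 ± 0.26 (edgeR, adjusted p = 0.638).

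By group, 0 of the tested A and U tails passed in each. The median slope over all 511 A and U tails tested in the table was -0.0092. It was -0.080 over 9 tails of the neuron enriched miRNAs, -0.0034 over 12 of the proliferation clusters, -0.0022 over 10 of maturation and glia and -0.13 over 5 of the Dlk1-Dio3 region, which shares miR-134 with the first group. It was -0.11 over 4 tails of miR-221 and miR-222, -0.027 over 4 of the Gnas region, 0.12 over 2 of the mesenchyme enriched miR-199a-3p and 0.033 over 21 tails of the other 20 miRNAs. Of the 65 slopes, 34 were above 0 and 31 below, so that no direction was shared within the set.

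A share in 1 tissue sample had a 95% Wilson interval with a median half-width of 1.14 percentage points over the named miRNAs with enough reads, and of 8.97 at the widest. Reads after PCR are not independent molecules, so the intervals cover counting error only.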

How the data were processed

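The authors deposited, for each library, the unique clean tags with their read counts, after removal of low quality reads, adaptors and contaminants, without normalization or mapping. No genome was used here. Mature sequences were assembled from primers or read from RefSeq (GRCr8), where 29 of the 44 equalled a mature sequence and 28 lay in a hairpin; 11 sequences nested in another were left out. The counting was tested on simulated tags. edgeR 4.0.16 (quasi-likelihood test), DESeq2 1.42.0 and limma 3.58.1 ran in R 4.3.3, and the rest in Python 3.11.15 with numpy 2.4.6, pandas 2.3.3 and scipy 1.17.1. The edgeR and DESeq2 fits of tailed against full-length reads had a term for each tissue sample. limma was fitted to the log2 ratio (pseudocount 0.5) without such terms, as were the fits of tailed reads alone to their counts. SE is the slope divided by the root of F. The miRNAs and lists were chosen with earlier results of these data known. The text names the 6 highest and 3 lowest mean A and U shares of those with 100 reads in each tissue sample, and 8 fixed miRNAs whatever their reads (miR-124, miR-128, miR-29a, miR-29b, miR-29c, miR-219-2-3p, miR-16 and miR-22); the rule also allowed 10 trends past the threshold, of which there were 0. Run numbers paired the libraries: the run difference of the log2 ratio correlated between tissue samples at 0.137 to 0.853 in all 36 pairs, over 228 combinations.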

Additional observations from a re-analysis of the deposited data

How the results depend on the processing

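The count of 0 combinations past the threshold in the tail trend rose to 34 with DESeq2, of which 5 were A or U tails of the 44 miRNAs, and to 38 (7) when run was a replicate block, and was 1 for run 1 alone, without E10 and E13, and for tails of 1 base (0 of the members each). Tailed reads alone, which also hold the change of the miRNA, gave 256 (41) with TMM and 271 (43) with DESeq2 size factors. Leaving out 1 tissue sample gave 0 to 1, and 0 to 1 among the members, the A tail of miR-92a without E13. limma, both other filters, run 2 alone, the comparison of 2 groups, tails of 2 or 3 bases, tags of both runs and RefSeq ends gave 0. Slopes turned with tailed reads alone for miR-128 A (0.77 with TMM and 0.77 with DESeq2), miR-29a A (0.86 and 0.88), miR-29a U (0.79 and 0.81), miR-221 A (0.17 and 0.21) and miR-199a-3p U (-0.52 and -0.49). They also turned for Candidate 11 A with tails of 2 or 3 bases (-0.064), for miR-128 U without E10 and E13 (-0.17) and for miR-124 U with run 1 alone (0.17), without E10 and E13 (0.23) and without E10 (0.21, and down to -0.45 with another tissue sample left out). With tails of 2 or 3 bases the A and U shares lay above the C and G shares in miR-222 (by 2.10 and 1.25 percentage points) and miR-494 (0.18 and 0.45), where C tails of 1 base no longer counted. The run test gave 53 calls, 0 to 47 with 1 tissue sample left out, and 0 to 8 for the 11 of the members. The cause was not tested where none is named.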

Other observations

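Tails that mixed A and U were left out of the shares above and were counted beside them. Over the 25 miRNAs with enough reads they were a median of 4.81% of all extensions of 1 to 3 bases, from 0.0875% in miR-494 to 42.9% in miR-92b. miR-92b had 36186 such reads against 43652 with a tail of A alone or U alone, among them 11521 reads with an A followed by a U. In miR-298, which had too few reads in a tissue sample for shares, mixed tails were 54.6% of extensions and an A followed by a U led with 27322 reads. In miR-134 they were 37.5% and in Candidate 55 30.0%. miR-29a, with 861486 full-length reads, had 59 reads with a mixed tail, 0.294% of its extensions. Extensions made of A and U alone, mixed or not, were a median of 95.7% of all extensions of these miRNAs.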
